A study of Mus musculus with 64 samples.

Results

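RPB2 is the second-largest subunit of Pol II, the RNA polymerase that transcribes protein-coding genes, and this account follows the mRNA pool of mouse embryonic stem cells after RPB2 was targeted for destruction. The cells were V6.5 embryonic stem cells in which RPB2 was fused to an auxin degron, through which the plant receptor OsTir1 sends a protein to the proteasome once auxin (indole-3-acetic acid, IAA) is present. Members were chosen by column name: 2 libraries of the RPB2 line in IAA (500 µM, 12 h) and 2 libraries of the same line without IAA, 4 of the 64 libraries of the series. Both groups received doxycycline (12 h, at 2 µg/ml per the labels' protocols and 1 µg/ml per the series text) to switch on OsTir1, and both grew in medium with CHIR99021, which inhibits GSK3, and PD0325901, which inhibits MEK. Fly S2 cells were added at 10% before extraction, but fly counts were not analysed here. Wild-type (WT) cells and the RPB1 and RPB6 degron lines, each untreated and in IAA (500 µM, 12 h) with 2 libraries a group, serve as comparisons. Their labels give the same doxycycline (2 µg/ml, 12 h) and the same 10% of fly cells, with and without IAA. Whether WT cells carried OsTir1, and whether the RPB2 line is 1 clone, is not stated in the labels used. The files hold mRNA counts and no protein, so the loss of RPB2 itself was not measured.

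RPB2 and RPB1 together form the cleft in which Pol II joins nucleotides, and RPB2 also holds part of the active site and a wall that turns the RNA and DNA hybrid. A cell that cannot start new Pol II transcripts keeps the mRNAs it already has, and each mRNA then falls at the pace of its own decay. mRNAs of ribosomal proteins, respiratory enzymes and glycolysis are known as long-lived, whereas those of many transcription factors and immediate-early genes last for minutes to hours. Pol I and Pol III, which make ribosomal RNA and small RNAs such as tRNAs, have second-largest subunits of their own, and mitochondria use a single-subunit polymerase.

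The 4 libraries differed in makeup as well as in depth. Untreated libraries held 5172080 and 6998312 counts, and IAA libraries 3888530 and 3983822. A gene with at least 1 count numbered 20414 and 21037 untreated and 18396 and 18352 in IAA. The count of genes that together held 50% of a library fell from 1100 and 1077 to 395 and 389, so a smaller set of mRNAs took a larger share. In RPB6 the same number went from 1174 and 1173 to 534 and 529, in RPB1 from 1106 and 1110 to 1267 and 1254, and in WT from 1270 and 1272 to 1307 and 1307. Levels below are CPM (counts divided by library size) scaled with TMM, a method that takes most genes as unchanged, and its factors were 0.988 and 0.968 untreated against 0.541 and 0.539 in IAA. Each change is a log2 fold change ± an approximate SE on that scale, where 1 is a doubling. That SE is the absolute change divided by the square root of the F statistic of edgeR's quasi-likelihood test. Where counts are low, it can be smaller than counting error alone. A change called a rise or a fall passed this test at a Benjamini-Hochberg adjusted p of 0.05 over 17928 genes. Such changes are relative: with counts alone, fewer cells and less RNA per cell cannot be told apart. Separate cultures for the 2 libraries of a group are not stated in the labels, and p-values therefore reflect spread that may be technical.

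On the TMM scale 5005 genes rose (27.9% of the genes tested) and 6095 fell (34%), 61.9% in all. The filter on low counts ran over all 52 libraries, so a gene could be tested without being detected in RPB2. Of the genes tested, 323 had no count in the 4 RPB2 libraries and 15585 exceeded 1 CPM in at least 1 of them. Genes without a count in these libraries could not be called and lower both shares. Changes were large: the middle of the distribution ran from -1.64 (25th percentile) to 0.95 (75th), and 5% of genes lay below -3.88. By at least 1 log2 unit, 3390 genes rose (18.9%) and 4889 fell (27.3%). The balance of rises and falls rests on the scale. Scaled to total counts 2493 genes rose (13.9%) and 9271 fell (51.7%), with a median of -1.03 in place of -0.19. Scaled to the mRNAs of the mitochondrial genome, which Pol II does not make, 89 rose (0.496%) and 13910 fell (77.6%), with a median of -2.32. Counts held 1324 tested genes without a count in 1 of the 2 groups, and with those set to the bound that 3 counts give, the TMM median was -0.02. Every fall named below had the same sign under these 2 scalings and with RLE size factors. Of 73 risen genes named below and followed under each scaling, 3 lay below 0 when scaled to total counts and 55 when scaled to mitochondrial mRNAs.

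**Figure D1:**
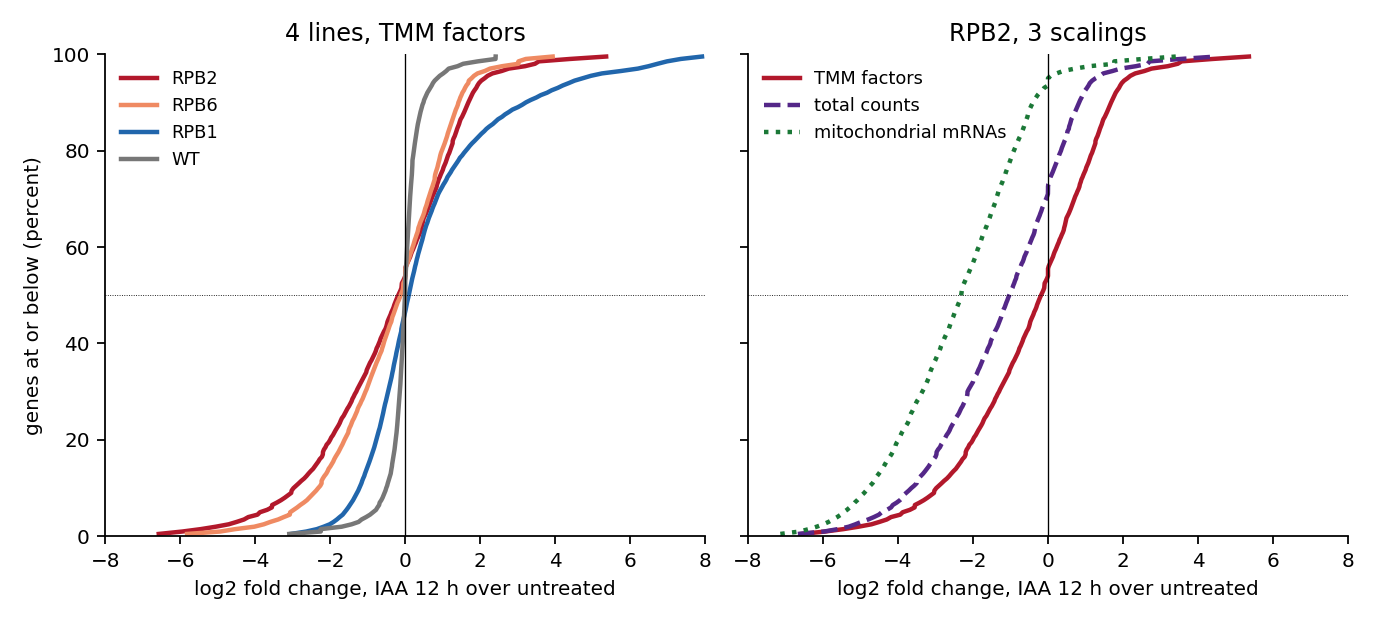
Cumulative share of the 17928 tested genes (y axis, percent) at or below a log2 fold change (x axis, IAA 12 h over untreated). Left, RPB2, RPB6, RPB1 and WT with TMM factors; right, RPB2 with 3 scalings. The RPB2 and RPB6 curves spread widely to both sides, RPB1 has a long tail of rises (95th percentile 4.73), WT is steep at 0, and the RPB2 median moves from -0.19 to -1.03 and -2.32 with the scale. A gene could be tested by being high in RPB1 IAA alone, which favours the RPB1 tail.

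The mRNA of RPB2 itself was examined first, although its level says nothing about the protein. Polr2b (ENSMUSG00000029250, mm10 chromosome 5, 77310147 to 77349324, 25 exons) had 184 and 137 CPM untreated and 466 and 439 CPM in IAA. Both IAA libraries lay above both untreated ones, at 1.50 ± 0.092 (edgeR adjusted p 2.9e-19), 0.64 scaled to total counts and -0.73 scaled to mitochondrial mRNAs. In raw counts the gene had 937 and 928 untreated and 979 and 943 in IAA. The Polr2b response was larger than in RPB6 by 1.13 ± 0.13 (edgeR adjusted p 4.4e-09; 0.87 and not called scaled to mitochondrial mRNAs) and than in RPB1 by 1.39 ± 0.13 (edgeR adjusted p 3.3e-13), although the difference from RPB1 was -0.27 scaled to mitochondrial mRNAs.

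Of the 12 Pol II subunit genes, 9 rose and 1 fell (all genes tested: 27.9% and 34%). Their median was 0.84, -0.01 scaled to total counts and -1.37 scaled to mitochondrial mRNAs. Polr2l, the small zinc-binding subunit RPB10 shared with Pol I and Pol III, went from 65.8 and 61.2 to 215 and 220.4 CPM (1.78 ± 0.18). Polr2e, the shared subunit RPB5 of the jaw, went from 283 and 342 to 929.9 and 987 CPM (1.62 ± 0.1). Polr2f (RPB6) changed by 1.41, Polr2g (RPB7 of the stalk) by 0.95, Polr2c (RPB3 of the assembly platform) by 0.92, Polr2k by 0.77, Polr2d by 0.76 and Polr2h by 0.59. Scaled to total counts the calls of Polr2c (0.06) and Polr2g (0.10) were lost. Polr2j, the assembly partner RPB11, was the one that fell, from 53.5 and 76 to 30.9 and 33.6 CPM (-1.02 ± 0.22), and its response was below that in RPB6 by 1.17 (-1.17 ± 0.31, edgeR adjusted p 0.0058), a call lost without untreated replicate 2 (-0.89). Polr2a, which codes for RPB1 and its C-terminal tail, had 669.7 and 508 CPM untreated and 751 and 651 in IAA (0.25 ± 0.12, edgeR adjusted p 0.057). The gene passed with DESeq2 and RLE size factors (0.49 in both), a replicate block (0.26), a stricter filter (0.35) and without untreated replicate 1 (0.41). Polr2i had 49.2 and 82.5 untreated and 88 and 81.5 in IAA (0.35 ± 0.19, edgeR adjusted p 0.12), so the groups overlapped. It passed with DESeq2 (0.60), RLE size factors (0.59), a stricter filter (0.44) and without untreated replicate 2 (0.77).

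Part of the read pool went to a few abundant classes. Cytosolic ribosomal protein mRNAs took 5.46% and 5.67% of counts untreated and 10.2% and 10.4% in IAA. Nuclear-encoded respiratory chain mRNAs went from 1.32% and 1.42% to 2.54% and 2.59%, proteasome mRNAs from 0.789% and 0.888% to 1.18% and 1.19%, and translation factor mRNAs from 2.77% and 2.87% to 4.10% and 4.12%. Mitochondrial-genome mRNAs went from 1.24% and 1.37% to 3.44% and 3.25%. The 100 most abundant genes of untreated WT cells held 14.0% and 14.4% of counts untreated and 22.8% and 22.8% in IAA. Each share rests on many counts, so its exact Clopper-Pearson 95% interval is narrow (10.20% to 10.26% for the first IAA value of ribosomal proteins) and covers counting error only. With 2 libraries a group an exact permutation test cannot go below 0.33, so these shares are given without a test. In RPB6 the ribosomal protein share went from 4.86% and 4.84% to 7.86% and 8.17%, in RPB1 from 5.40% and 5.39% to 6.75% and 6.78%, and in WT from 5.10% and 4.85% to 4.81% and 4.79%.

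**Figure D2:**
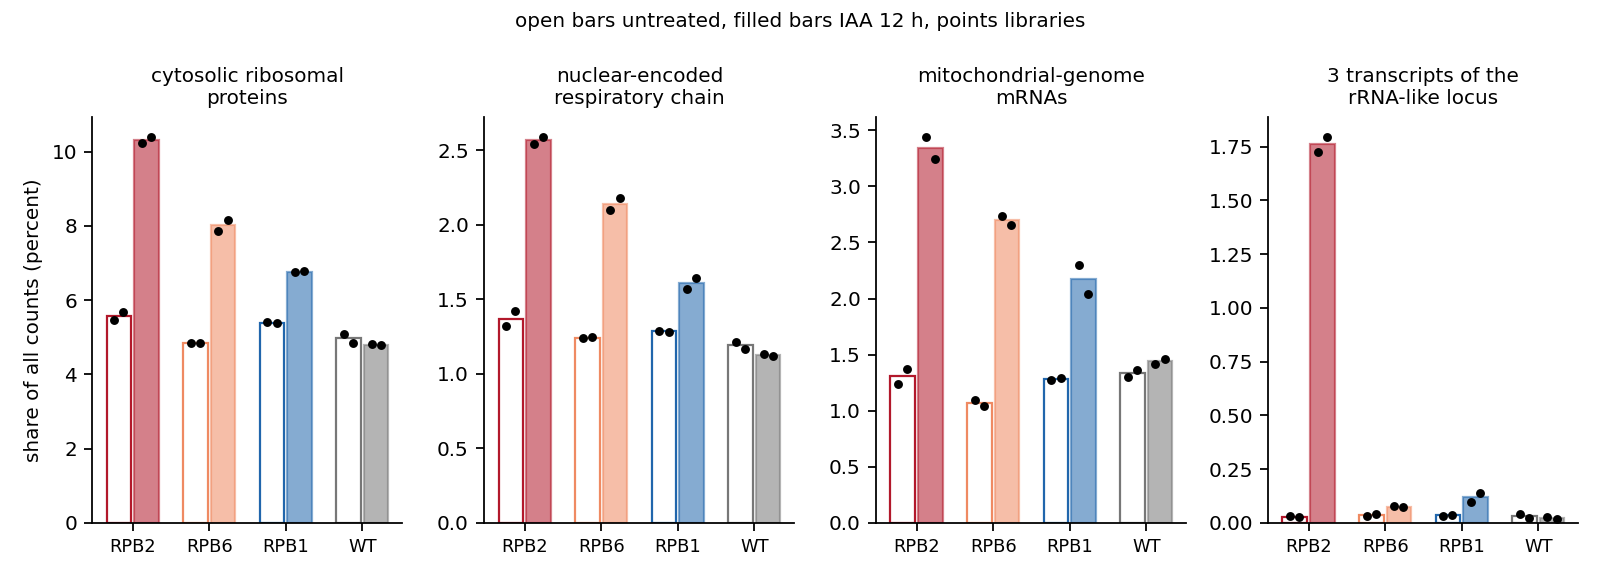
Share of all counts of a library (y axis, percent) in 4 gene classes, for the RPB2, RPB6, RPB1 and WT lines; open bars are untreated means, filled bars IAA means, points the 2 libraries. In RPB2 the ribosomal protein share went from 5.46% and 5.67% to 10.2% and 10.4%, and the 3 transcripts of the rRNA-like locus reached 1.73% and 1.80%.

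Ribosomal protein genes are grouped in cells by a stretch of C and T at their first transcribed bases, the terminal pyrimidine tract, through which their translation is controlled. Such a tract was searched in the RefSeq promoter windows (GRCm38.p6, 250 bases before to 50 after the start) as 6 or more C or T in a row on the sense strand within 3 bases of the start. It was found in 25 of the 58 matched ribosomal protein promoters (43.1%), in 16.8% of the promoters of tested genes, and in 16.7% of all 27025 promoters. The 3 longest are shown with that of Rps10, the member that fell, to let the start sites of genes that moved together and apart be compared. Each window gives 35 bases before and 20 from the start, 5′ to 3′ on the gene's strand, with the tract in capitals, and lies at 2:26910772-26910826 (+) for Rpl7a, 7:109519160-109519214 (+) for Rpl27a, 2:39005112-39005166 (-) for Rpl35 and 17:27635225-27635279 (-) for Rps10.
Rpl7a: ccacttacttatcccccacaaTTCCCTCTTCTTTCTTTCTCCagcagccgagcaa
Rpl27a: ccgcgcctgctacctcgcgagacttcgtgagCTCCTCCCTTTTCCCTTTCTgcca
Rpl35: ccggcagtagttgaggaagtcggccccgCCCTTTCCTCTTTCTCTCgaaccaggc
Rps10: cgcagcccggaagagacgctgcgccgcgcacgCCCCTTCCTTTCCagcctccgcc
The 4 tracts are 21, 20, 18 and 13 bases long. A match describes letters in a window and is no evidence for a factor acting there.

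Of 79 cytosolic ribosomal protein genes tested, 77 rose and 1 fell (all genes tested: 27.9% and 34%), with a median of 1.74 that was 0.88 scaled to total counts and -0.47 scaled to mitochondrial mRNAs. Their changes lay close together, with quartiles of 1.60 and 1.87. Rplp0, a stalk protein of the large subunit, went from 1714 and 1628 to 7081 and 7301 CPM (2.11 ± 0.083, edgeR adjusted p 8.1e-26). Rpsa, a small-subunit protein, went from 1560.1 and 1708 to 6822 and 6993 CPM (2.08 ± 0.097), and Rps2 from 2018 and 2003 to 7824 and 8178 CPM (1.99 ± 0.12). Rpl7a (1.74), Rpl27a (1.75) and Rpl35 (1.83), whose start sites are shown above, moved alike. Rps10, also of the small subunit, had 15.5 and 11.8 CPM untreated and 2.38 and 3.73 in IAA (-2.13 ± 0.36). Its level is far below that of the other members, and ribosomal protein genes have many near-identical processed copies, so reads may be divided among them and these values are uncertain. In RPB6 77 of the 79 rose (median 1.36; 27.3% of all genes rose and 33.4% fell there) and in RPB1 20 (median 0.15; 35.8% and 30.5%). The RPB2 response was above that of RPB6 in 28 members and below it in 1, against 6.03% and 9.95% of all genes, but above in 1 scaled to total counts (2.48% of all genes) and in 0 scaled to mitochondrial mRNAs (0.307%).

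All 76 tested genes of the nuclear-encoded respiratory chain rose (0.58 to 2.50, median 1.81), with a median of 0.95 scaled to total counts and -0.39 scaled to mitochondrial mRNAs. Atp5b, the catalytic subunit of ATP synthase, went from 1788 and 1741 to 6658 and 6816 CPM (1.93 ± 0.07). Cox4i1 of cytochrome oxidase went from 515 and 501 to 2014 and 2098 CPM (2.02 ± 0.1), Ndufa7 of complex I from 108 and 111 to 449 and 496 CPM (2.11 ± 0.097), and Sdha of complex II changed by 1.75. Each IAA library lay far above each untreated one. Of 13 genes for mitochondrial transcription and RNA upkeep 4 rose and 8 fell (median -1.66; all genes tested: 27.9% and 34%). Tefm, the elongation factor of the mitochondrial polymerase, went from 22.9 and 34.3 to 2.38 and 0.466 CPM (-4.34 ± 0.36). Mtpap, which adds poly(A) to mitochondrial mRNAs, went from 40.5 and 39.2 to 4.76 and 5.59 CPM (-2.94 ± 0.24). The helicase gene Twnk changed by -1.91, the packaging factor Tfam by -1.88 and the polymerase Polrmt by -0.93, while Lrpprc, which stabilises mitochondrial mRNAs, rose by 1.12 (-1.09 scaled to mitochondrial mRNAs). Of 76 mitochondrial ribosomal protein genes 40 rose and 22 fell, with a median of 0.35 that was -0.50 scaled to total counts and -1.85 scaled to mitochondrial mRNAs.

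The 12 tested mRNAs of the mitochondrial genome all rose (1.79 to 3.42, median 2.46) and had a median of 1.60 scaled to total counts. Their median of 0.24 when scaled to their own sum lies near 0 by construction. The mRNA mt-Co1, for a core subunit of cytochrome oxidase, went from 3692 and 3566 to 19306 and 19213 CPM (2.41 ± 0.14) and became the second most counted gene of the IAA libraries after a transcript of the rRNA-like locus described below. The level of mt-Cytb went from 2360.0 and 2816 to 10767 and 10146 CPM (2.01 ± 0.22), and that of mt-Nd5 from 1619 and 1685 to 9946 and 8883 CPM (2.51 ± 0.27). The change of mt-Nd1 was 1.79, and mt-Co2, a low-count member, went from 16.5 and 19.5 to 195 and 123 CPM (3.13 ± 0.25). In RPB6 all 12 rose (median 2.27), and the difference between the RPB2 and RPB6 responses was called in 0 of 12 members with edgeR (1 at an unadjusted p under 0.05, and 1 with DESeq2). In RPB1 6 rose (median 0.64).

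Other housekeeping mRNAs rose as well on this scale, where 27.9% of all genes tested rose and 34% fell. Of 36 translation factor genes 27 rose and 8 fell, with a median of 1.26 (0.40 scaled to total counts, -0.95 scaled to mitochondrial mRNAs). Pabpc1, the cytoplasmic poly(A)-binding protein, went from 1872 and 1805 to 7173 and 7236 CPM (1.97 ± 0.066). Eif5a went from 1395 and 1529.9 to 5454 and 5692 CPM (1.93 ± 0.099) and the elongation factor Eef1a1 from 4999 and 5185 to 15841 and 16140.0 CPM (1.65 ± 0.069). Factors of start-codon choice were among those that fell: Eif1 went from 376 and 417 to 66.6 and 75.5 CPM (-2.48 ± 0.12) and Eif1a from 210.4 and 240.4 to 30.4 and 36.8 CPM (-2.74 ± 0.13). The list therefore held members far apart in both directions.

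Of 32 proteasome genes 29 rose and 2 fell (all genes tested: 27.9% and 34%), with a median of 1.39 (-0.82 scaled to mitochondrial mRNAs). Psmd2, a base subunit of the regulatory particle, went from 625 and 660.0 to 2326 and 2326 CPM (1.86 ± 0.071), and the lid subunit Psmd7 from 357 and 430.3 to 198 and 187 CPM (-1.03 ± 0.09). Of 18 glycolysis genes 16 rose and 2 fell, with a median of 1.36 (-0.84 scaled to mitochondrial mRNAs). Gapdh went from 2983 and 3042 to 10010.0 and 10434 CPM (1.76 ± 0.089) and Pgam1 from 349 and 347 to 1399.8 and 1428 CPM (2.02 ± 0.069). The 2 that fell act at the entry of the pathway, the glucose transporter Slc2a1 (184 and 179.5 to 24.3 and 12.6 CPM, -3.30 ± 0.14) and the hexokinase Hk2 (475 and 397 to 65.6 and 61 CPM, -2.78 ± 0.11). Of 21 cytoskeleton genes 15 rose and 2 fell, with a median of 1.44 (-0.75 scaled to mitochondrial mRNAs). Among them Actb, for beta-actin, went from 2390.4 and 2322 to 8348 and 8541 CPM (1.84 ± 0.07), whereas Tubb4b, for a beta-tubulin, went from 789 and 872 to 322 and 301 CPM (-1.42 ± 0.084). Lysosomal and secreted glycoprotein genes rose in 13 of 15 cases and fell in 1, with a median of 1.25 (-0.96 scaled to mitochondrial mRNAs). The protease Ctsd changed by 1.82 and the membrane protein Lamp2 by -2.33.

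**Figure D3:**
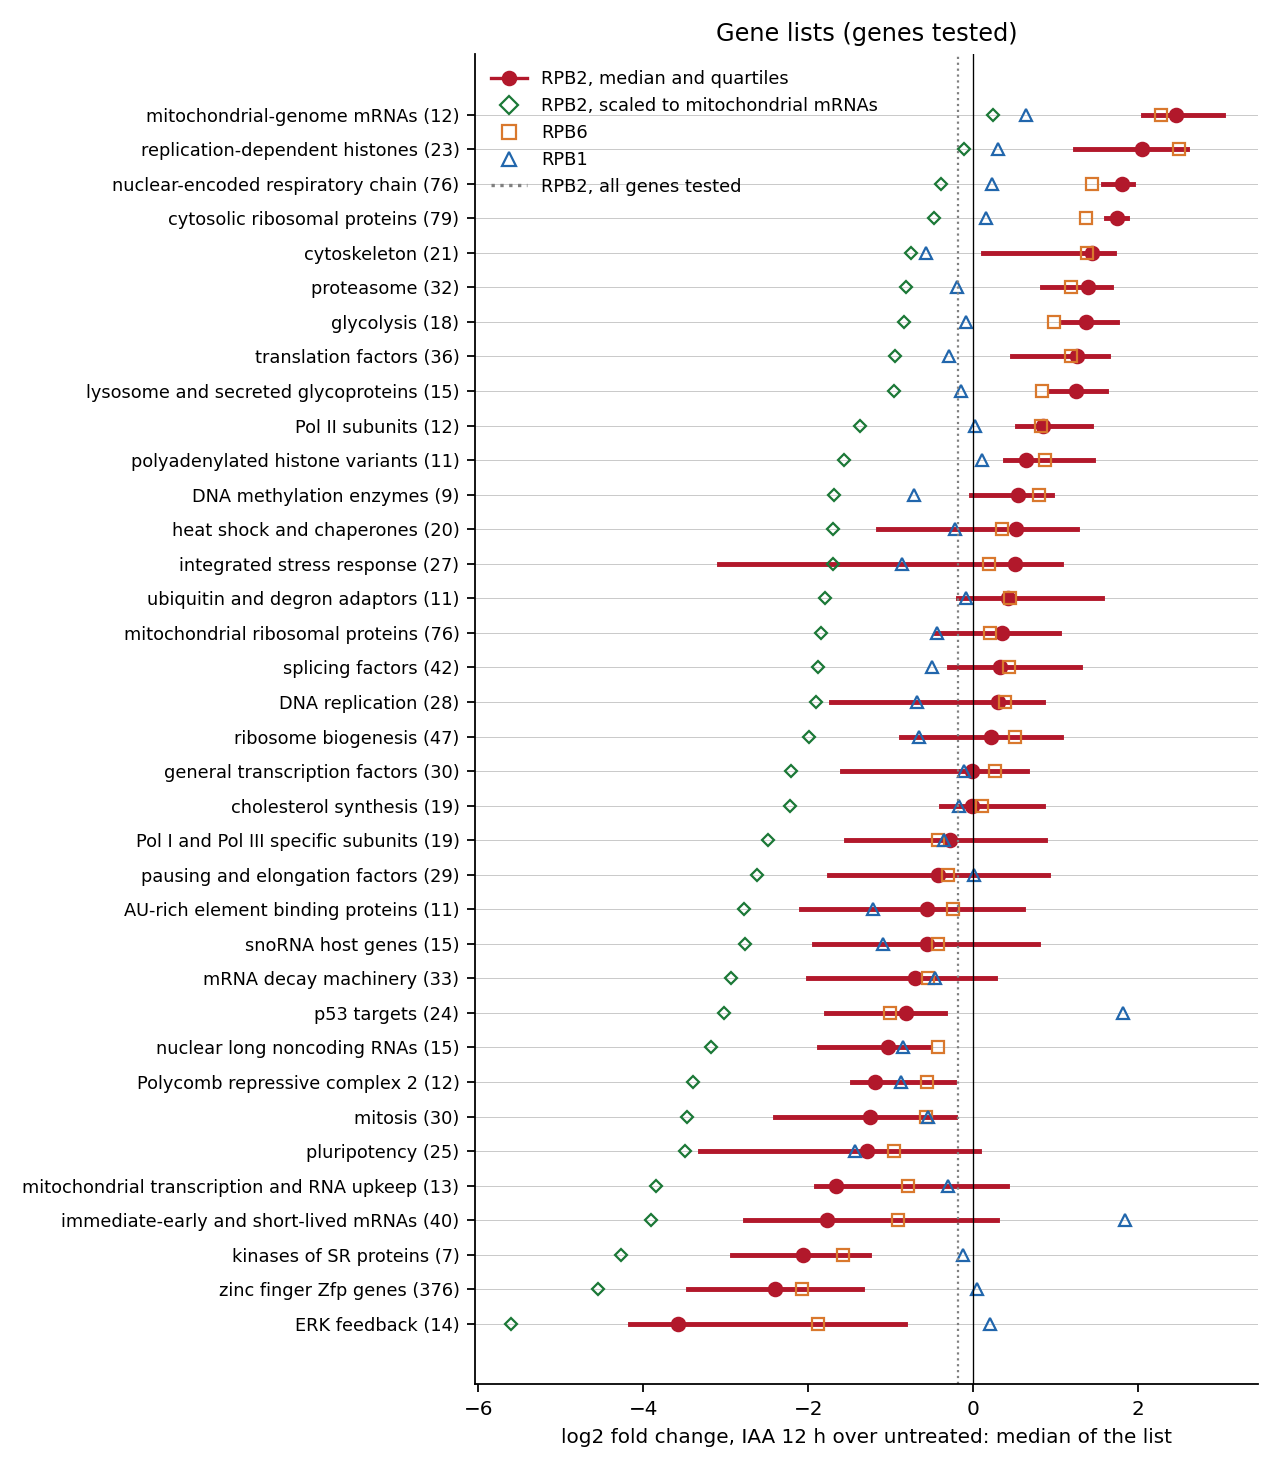
Log2 fold change (x axis, IAA 12 h over untreated) of gene lists (y axis, genes tested in brackets). Filled circles and bars are the RPB2 median and quartiles on the TMM scale, diamonds the RPB2 median scaled to mitochondrial mRNAs, squares RPB6, triangles RPB1, and the dotted line the RPB2 median of all genes tested (-0.19). The mitochondrial-genome list is highest (2.46) and the ERK feedback list lowest (-3.58), the p53 and immediate-early lists have RPB1 medians above 0 and RPB2 medians below 0, and most lists above 0 on the TMM scale lie below 0 on the mitochondrial one.

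The label of the cells was checked against the pluripotency list, the transcription factors and markers that define embryonic stem cells. All 25 genes were detected, and in untreated libraries Pou5f1 (1274 and 1673 CPM), Zfp42 (979 and 1102), Nanog (771 and 876) and Sox2 (441 and 402) were abundant. After 12 h of IAA 17 of the 25 had fallen and 5 had risen, with a median of -1.29 (all genes tested: 34% and 27.9%). In RPB6 17 fell and 6 rose, in RPB1 21 fell, and in WT 7 fell and 1 rose with IAA (0.842% and 0.803% of all genes in WT). The RPB2 response was below that of WT in 14 and above it in 5 (31.2% and 24.3% of all genes). Klf2, a Krüppel-like factor of the ground state, went from 336 and 331 to 6.18 and 16.3 CPM (-4.88 ± 0.23), and Klf4 from 390.0 and 331 to 14.3 and 21.9 CPM (-4.31 ± 0.17). Zfp42 (Rex1) went to 61.8 and 65.2 CPM (-4.03 ± 0.099), Sox2 to 28.1 and 28.4 CPM (-3.90 ± 0.16), Nanog to 195 and 209 CPM (-2.03 ± 0.088), and Esrrb from 913 and 791 to 317 and 295 CPM (-1.48 ± 0.077). The signal Fgf4 changed by -4.02 and the regulator Prdm14 by -2.25. Pou5f1, which codes for the Sox2 partner Oct4, went the other way to 5368 and 5631 CPM (1.90 ± 0.14, -0.30 scaled to mitochondrial mRNAs), as did Dppa5a (682 and 790.3 to 2768 and 2817 CPM, 1.92 ± 0.12). The let-7 regulator Lin28a (1.08) and the threonine dehydrogenase Tdh (1.18) also rose. Pou5f1 and Sox2, whose proteins bind DNA together, thus moved in opposite directions on the TMM scale. Gdf3 (-0.01 ± 0.088, edgeR adjusted p 0.94), Nr0b1 (0.07 ± 0.099, edgeR adjusted p 0.56) and Dppa4 (0.15 ± 0.1, edgeR adjusted p 0.23) did not pass the test, though Dppa4 passed without untreated replicate 2 (0.34). With DESeq2 and RLE size factors Nr0b1 (0.31 in both) and Dppa4 (0.39 in both) passed.

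**Figure D4:**
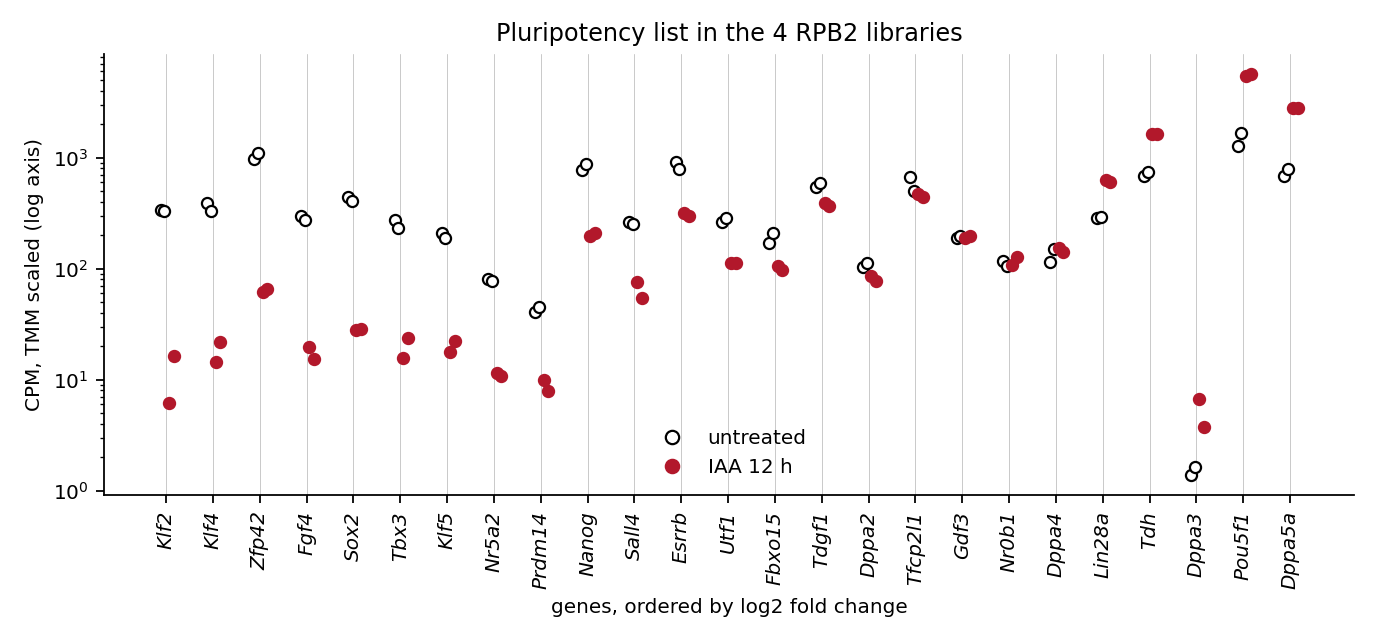
CPM on the TMM scale (y axis, log axis) of the 25 genes of the pluripotency list (x axis, ordered by log2 fold change) in the 2 untreated (open) and 2 IAA (filled) RPB2 libraries. Klf2 falls from 336 and 331 to 6.18 and 16.3 CPM at the left, and Pou5f1 rises from 1274 and 1673 to 5368 and 5631 CPM at the right, the latter below 0 (-0.30) when scaled to mitochondrial mRNAs.

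Targets of the FGF and ERK pathway, which MEK inhibition already holds low in this medium, fell furthest of the lists. Of 14 ERK feedback genes 10 fell and 2 rose (median -3.58; all genes tested: 34% and 27.9%). Spry4, an inhibitor of receptor signalling, went from 76.6 and 72.7 to 0.476 and 0.466 CPM, 1 count in each IAA library, a ratio of 158 with a 95% counting interval of 43.6 to 1306. Spred1 went from 57.8 and 56.3 to 3.81 and 2.33 CPM (-4.21 ± 0.25), and Spry2 from 113 and 108 to 12.8 and 9.32 CPM (-3.31 ± 0.16). Dusp6, an ERK phosphatase, went from 27.8 and 25.1 to 0.951 and 2.33 CPM (-3.98 ± 0.32). Etv4, an ETS factor downstream of the pathway, rose from 132 and 126 to 412 and 403 CPM (1.66 ± 0.095, -0.56 scaled to mitochondrial mRNAs). In WT 4 of the 14 fell with IAA (0.842% of all genes). Wnt targets, held active by the GSK3 inhibitor, divided into 4 that rose, 4 that fell and 5 that did not pass, near the shares of all genes tested (27.9% and 34%). Axin2 went from 42.7 and 39.3 to 4.76 and 4.66 CPM (-3.11 ± 0.23), Myc from 32.9 and 36.8 to 2.38 and 3.73 CPM (-3.50 ± 0.27), and Sp5 from 4.7 and 4.73 CPM to no count, at least 6.68-fold lower against a floor of 3 counts over the group. Ccnd1, for cyclin D1, rose from 178 and 163 to 436 and 440.4 CPM (1.36 ± 0.078, -0.86 scaled to mitochondrial mRNAs). In WT 4 of these 13 genes rose with IAA (0.803% of all genes).

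Immediate-early and other short-lived mRNAs fell in 25 of 40 cases and rose in 7 (median -1.77; all genes tested: 34% and 27.9%). Rhob, a small GTPase, went from 60.5 and 66.2 to 2.85 and 2.33 CPM (-4.60 ± 0.23), and the kinase Sgk1 from 339 and 366 to 16.2 and 20.5 CPM (-4.26 ± 0.12). Mycn went from 144 and 121 to 9.99 and 9.79 CPM (-3.73 ± 0.16). Mcl1, a survival factor of the Bcl2 family with an unstable mRNA, went from 341 and 332 to 44.7 and 40.1 CPM (-2.99 ± 0.091). Fos was among those that rose, from 1.18 and 1.03 to 11.4 and 11.2 CPM (3.34 ± 0.42), and stayed above 0 on each scale tried. Of 24 p53 targets 14 fell and 3 rose (median -0.82). Cdkn1a, the cell cycle inhibitor p21, went from 68.4 and 67.2 to 27.1 and 25.6 CPM (-1.36 ± 0.14), Mdm2, the ligase that degrades p53, from 74 and 76.1 to 24.3 and 20.5 CPM (-1.75 ± 0.15), and Sesn2 from 106 and 113 to 16.6 and 16.3 CPM (-2.74 ± 0.14). Bax, which permeabilises mitochondria, rose from 157 and 169 to 400.5 and 437 CPM (1.36 ± 0.15, -0.85 scaled to mitochondrial mRNAs). Of 15 Bcl2 family genes 3 rose and 6 fell, with the survival factor Bcl2l1 at -2.35.

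Stress lists held both directions, as did all genes tested (27.9% rose and 34% fell). In the integrated stress response list 14 of 27 rose and 9 fell, with a median of 0.51 that was -0.35 scaled to total counts and -1.70 scaled to mitochondrial mRNAs. The regulator Atf4 went from 347 and 394 to 22.4 and 24.7 CPM (-3.98 ± 0.16), Trib3 from 60.3 and 64.7 to 2.85 and 2.33 CPM (-4.58 ± 0.32) and the amino acid transporter Slc38a2 from 204 and 178 to 13.3 and 16.3 CPM (-3.68 ± 0.18). Asns, an enzyme that Atf4 controls, went from 923 and 1034 to 2156 and 2148 CPM (1.14 ± 0.07). Of 20 heat shock and chaperone genes 12 rose and 6 fell, with a median of 0.52 that was -0.34 scaled to total counts and -1.70 scaled to mitochondrial mRNAs. Hsp90ab1, the constitutive cytosolic Hsp90, went from 4713 and 4548 to 14154 and 14487 CPM (1.63 ± 0.067). Hspa8, the constitutive Hsp70 and 1 of the 10 most counted genes before treatment, fell from 2988 and 3185 to 565 and 566 CPM (-2.45 ± 0.076), and its co-chaperone Dnajb1 from 123 and 126 to 11.4 and 12.6 CPM (-3.37 ± 0.13). Of 11 interferon response genes 4 rose and 4 fell.

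Of 30 mitosis genes 24 fell and 4 rose (median -1.25; all genes tested: 34% and 27.9%). The kinases Plk1 (226 and 230.2 to 17.1 and 23.3 CPM, -3.49 ± 0.13) and Cdk1 (222 and 272 to 27.1 and 21.9 CPM, -3.34 ± 0.14) fell, as did cyclin Ccnb1 (457 and 464 to 137 and 119 CPM, -1.85 ± 0.082). Cyclin Ccnb2 rose from 159 and 187 to 410.5 and 390.0 CPM (1.21 ± 0.087, -1.0 scaled to mitochondrial mRNAs). DNA replication genes split into 16 that rose and 12 that fell, with a median of 0.30 that was -0.56 scaled to total counts. Among those that load the helicase, Cdt1 went from 289.9 and 351 to 14.7 and 21 CPM (-4.16 ± 0.14) and Orc1 from 120.3 and 128 to 14.3 and 15.8 CPM (-3.04 ± 0.13). The ligase Lig1 rose from 439 and 476 to 1450.3 and 1467 CPM (1.67 ± 0.078). Replication-dependent histone mRNAs lack poly(A) tails, and in these poly(A) libraries 23 of 60 were tested, of which 14 rose and 0 fell with edgeR (0 at an unadjusted p under 0.05, and 0 with DESeq2), with a median of 2.05 that was -0.11 scaled to mitochondrial mRNAs. The filter on low counts ran over all 26 groups, so members low in untreated RPB2 could be tested only through groups where they were high. That favours rises over falls, so neither the split nor the median is independent evidence of a rise. Hist1h3c went from 0.783 and 1.63 to 6.66 and 10.7 CPM (2.77 ± 0.45). All 60 together took at most 0.00786% of the counts of a library, and histone genes have near-identical copies. The linker histone variant H1f0 fell by 2.74 (-2.74 ± 0.16).

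Counts of called genes in the lists of transcription machinery are read against 27.9% higher and 34% lower over all genes tested. Of 19 subunits specific to Pol I or Pol III 7 rose and 9 fell (median -0.28). Polr3f, a Pol III subunit, went from 56.4 and 50.5 to 2.85 and 1.4 CPM (-4.64 ± 0.29), and Twistnb, a Pol I stalk subunit, from 63.1 and 68.4 to 4.76 and 6.52 CPM (-3.54 ± 0.21). General transcription factors rose in 12 of 30 cases and fell in 14. The TFIID subunit Taf3 changed by -3.72 and the TFIIH kinase Cdk7 by -2.85, whereas the TFIID subunit Taf10 rose by 1.70. Of 29 pausing and elongation factors 11 rose and 16 fell (median -0.42). Mepce, which caps the 7SK RNA that holds the elongation factor P-TEFb inactive, went from 77.4 and 74.5 to 4.76 and 4.66 CPM (-4.00 ± 0.2). Hexim1, the P-TEFb inhibitor in the same particle, went from 90.5 and 109.8 to 32.3 and 24.2 CPM (-1.83 ± 0.14), and Ccnt2, a P-TEFb cyclin, changed by -3.03. Supt5, a Pol II pausing factor, rose by 1.46.

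Counts for the lists of RNA processing and ribosome biogenesis are read against the same 27.9% higher and 34% lower. Splicing factors rose in 23 of 42 cases and fell in 12, with a median of 0.33 that was -0.53 scaled to total counts and -1.88 scaled to mitochondrial mRNAs. Prpf19 of the catalytic spliceosome went from 316 and 331 to 1214 and 1163 CPM (1.88 ± 0.067), and the SR protein gene Srsf3 from 560.2 and 663 to 319 and 323 CPM (-0.93 ± 0.089). Among 7 kinases that phosphorylate SR proteins 6 fell. Clk1 went from 68 and 78.2 to 10.5 and 8.85 CPM (-2.92 ± 0.18), Clk4 from 28.4 and 31.9 to 3.81 and 3.73 CPM (-3.0 ± 0.26) and Dyrk1a from 82.1 and 66.8 to 9.99 and 9.32 CPM (-2.94 ± 0.17). Srpk1 did not pass, at 191 and 216 against 205 and 219 CPM (0.06 ± 0.083, edgeR adjusted p 0.57), though it passed with DESeq2 and RLE size factors (0.30 in both). Of 33 genes of the mRNA decay machinery 20 fell and 8 rose (median -0.71). The decapping activator Dcp1a went from 67.4 and 59.8 to 5.71 and 7.46 CPM (-3.26 ± 0.2), while Lsm4, of a ring that binds mRNA ends, rose from 244 and 251 to 1059 and 1102 CPM (2.12 ± 0.17, -0.09 scaled to mitochondrial mRNAs). Of 11 genes for proteins that bind AU-rich elements 5 rose and 6 fell, and Zfp36 rose from 5.68 and 4.73 to 27.1 and 15.8 CPM (2.05 ± 0.26, -0.17 scaled to mitochondrial mRNAs). Of 47 ribosome biogenesis genes 24 rose and 19 fell, with a median of 0.21 that was -0.64 scaled to total counts. Gnl3 of the nucleolus went from 251 and 307 to 23.3 and 22.4 CPM (-3.61 ± 0.14), whereas the nucleolar chaperone Npm1 rose from 2791 and 3381 to 8179 and 8116 CPM (1.40 ± 0.082) and Bop1 by 1.78.

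Polycomb repressive complex 2, which methylates histone H3, had 8 of 12 genes lower and 3 higher (median -1.19; all genes tested: 34% and 27.9%). Its accessory subunit Mtf2 went from 340.2 and 331 to 50.9 and 48 CPM (-2.76 ± 0.11), and the histone binder Rbbp4, which other complexes share, rose from 465 and 530.4 to 1554 and 1508 CPM (1.62 ± 0.074). Of 9 DNA methylation enzymes 5 rose and 2 fell, with a median of 0.54 that was -0.32 scaled to total counts and -1.68 scaled to mitochondrial mRNAs. The 2 that fell oxidise methylcytosine, with Tet2 going from 187 and 132 to 26.2 and 25.2 CPM (-2.63 ± 0.22) and Tet1 from 426 and 304 to 106 and 90.9 CPM (-1.89 ± 0.17). Dnmt3b, which adds it, rose from 185 and 168 to 569 and 544 CPM (1.66 ± 0.082, -0.56 scaled to mitochondrial mRNAs). In cholesterol synthesis and uptake 8 of 19 genes rose and 5 fell, with a median of -0.02.

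Genes with a symbol of Zfp and a number, most of which code for zinc finger proteins that bind DNA, were taken as a list after their values were seen. Of 376 tested 308 fell and 10 rose (all genes tested: 34% and 27.9%), with a median of -2.41 and quartiles of -3.46 and -1.35. Zfp105 went from 25.1 and 23.9 CPM to no count (at least 34.7-fold lower), Zfp566 from 8.42 and 11.2 (at least 13.9-fold) and Zfp51 from 10.2 and 9.16 (at least 13.7-fold). Zfp180 kept 2 and 1 counts in IAA against 30.2 and 32.1 CPM, a ratio of 44.2 with a counting interval of 15 to 216, and Zfp81 kept 1 count, a ratio of 72.6 with an interval of 12.9 to 2883. In RPB6 318 fell and 7 rose (median -2.08), so the list was low there as well. In RPB1 116 fell and 121 rose (median 0.04). The response was lower in RPB2 than in RPB1 for 288 of the 376 and higher for 11 (all genes tested: 35.1% and 27.5%), and scaled to mitochondrial mRNAs lower for 346.

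The most counted gene of the IAA libraries was Gm26917 (ENSMUSG00000097971), an annotated long noncoding RNA of 1 exon at 39843013 to 39846341 on mm10 chromosome 17. It stands beside Gm42418 (39846958 to 39848788), which CT010467.1, annotated as rRNA on the opposite strand (39846353 to 39848827), overlaps. The 3 were chosen after their values were seen. Their sequence is known to resemble ribosomal RNA, the product of Pol I, and reads shared with it make these values uncertain. Gm26917 went from 225 and 156 to 24122 and 25104 CPM (7.02 ± 0.36), Gm42418 from 43.7 and 45.5 to 3390.0 and 3464 CPM (6.26 ± 0.39) and CT010467.1 from 53.7 and 60.1 to 4447 and 4794 CPM (6.34 ± 0.36). Together they took 0.0318% and 0.0253% of counts untreated and 1.73% and 1.80% in IAA. In RPB6 the share went from 0.0307% and 0.0407% to 0.0785% and 0.0720%, and in RPB1 from 0.0318% and 0.0386% to 0.0990% and 0.138%. The Gm26917 response was above that of RPB6 by 5.37 ± 0.43 (edgeR adjusted p 4.4e-13) and above that of RPB1 by 5.34 ± 0.43 (edgeR adjusted p 6.5e-15). Gm24187, annotated as a miRNA of 57 bases on chromosome 13, went from 2.15 and 3.4 to 702 and 735 CPM (7.96 ± 0.2). These libraries select poly(A), and the share of rRNA left in each preparation was not measured, so its part in these values was not tested.

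Other noncoding RNAs are made by other polymerases or kept in the nucleus. Rn7sk, the 7SK RNA made by Pol III, had 1 count in the untreated libraries and 13.8 and 9.79 CPM in IAA, a ratio of 139.7 with a counting interval of 24 to 5628. Of 48 snoRNA genes tested, which are mostly cut from introns of Pol II transcripts, 25 fell and 2 rose (median -2.79; all genes tested: 34% and 27.9%). With poly(A) selection, counts at Rn7sk and at snoRNA genes may not reflect the levels of those RNAs, which was not tested. Host genes of snoRNAs fell in 9 of 15 cases and rose in 4. Snhg5, a host gene, went from 73.6 and 105 to 5.71 and 3.73 CPM (-4.25 ± 0.24). Of 15 nuclear long noncoding RNAs, a list that holds Gm26917, 12 fell and 3 rose (median -1.03). Neat1, the scaffold of paraspeckles, went from 45.2 and 37.5 to 4.28 and 3.73 CPM (-3.35 ± 0.36) and Malat1 of nuclear speckles from 269 and 205 to 148 and 132 CPM (-0.75 ± 0.22). Meg3, an imprinted RNA, rose by 1.17 (-1.06 scaled to mitochondrial mRNAs).

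The extremes were genes that left or entered detection. Besides Zfp105, the genes with the lowest fitted changes among those with a mean of 5 CPM or more included Fjx1, a secreted Golgi kinase (14.1 and 9.9 CPM to no count, at least 17-fold lower), Zc3h11a, a zinc finger protein of mRNA export (15.1 and 7.39, at least 15.9-fold), Stc2, a secreted stress-induced glycoprotein (9.4 and 8.57, at least 12.7-fold), and Sox1 (9.4 and 8.42, at least 12.6-fold). Slc39a6, a zinc transporter, kept 1 count against 26.1 and 23.8 CPM, a ratio of 105 with a counting interval of 18.7 to 4169. Chac1, a glutathione-degrading target of Atf4, also kept 1 count against 25.5 and 22.3 CPM, a ratio of 101 with an interval of 17.9 to 3985. In the other direction Colec11, a secreted lectin, had no count untreated and 15.2 and 12.1 CPM in IAA, at least 54.2-fold higher. Best2, a chloride channel gene, had 1 count untreated and 9.04 and 12.1 CPM in IAA, a ratio of 126 with an interval of 21.4 to 5076. Among the largest rises were the troponin gene Tnnc2 (0.392 and 1.18 to 19.5 and 14.9 CPM, 4.32 ± 0.44) and the actin gene Acta1 (0.392 and 0.887 to 14.3 and 12.6 CPM, 4.27 ± 0.48). Neurog2, a neurogenic factor, went from no count to 4.76 and 5.59 CPM, at least 20.5-fold higher. In RPB1 the fitted responses of Tnnc2 (5.54) and Acta1 (8.13) were positive too.

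Features of the genes moved with the response across 12752 protein-coding genes with 1 CPM or more in untreated WT. Such relations are across genes, which share libraries and are not independent replicates. Spliced length, exon number and GC content were those of the longest annotated transcript, which need not be the one expressed in these cells. Over 10 equal bins, genes with the shortest spliced length (up to 1433 bases) had a median change of 0.81 and those with the longest (6779 bases or more) one of -0.78, with a decline in each bin between (Spearman's rho -0.23). Spliced length itself rose weakly with abundance in untreated WT (Spearman's rho 0.15). The relation was therefore also taken at 20 to 50 CPM in untreated WT, where the medians over 5 bins of length ran from 0.41 to -1.14. The most abundant bin of genes (169.6 CPM or more) had a median of 0.89, and the third lowest one of -0.73. Genes of low GC content lay lower, with -0.96 in the lowest of 10 bins and 0.14 in the ninth. Genes with 2 exons had a median of -0.85 and those with 33 or more 0.16. In RPB6 rho with spliced length was -0.27, and rho with abundance was 0.16 in RPB2, 0.20 in RPB6 and -0.39 in RPB1.

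Among annotation classes, processed pseudogenes rose in 291 of 667 cases and fell in 52 (median 1.26; all genes tested: 27.9% and 34%). They are copies of abundant mRNAs such as those of ribosomal proteins, with which they share reads, and how the authors counted reads with several matches is not stated, which leaves these values uncertain. Long intergenic noncoding RNAs rose in 49 and fell in 95 of 612 cases, and protein-coding genes rose in 4280 and fell in 5370 of 14253 (median -0.20). Core promoter motifs were counted on both strands of the same 300-base windows. TATAAA stood in 14.2% of all promoters, 7.31% of those of tested genes, 8.82% of those of genes that rose by 1 log2 unit or more and 5.74% of those that fell by as much. CCAAT stood in 37.9%, 39.0%, 40.1% and 40.6%, and in 49.7% of 306 Zfp promoters. GGGCGG stood in 35.9%, 61.3%, 60.5% and 65.7%.

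RPB6, a small subunit shared by the 3 nuclear polymerases, gave the response most like that of RPB2 among the lines compared here. Of the genes that rose in RPB2 3967 rose in RPB6 (79.3% of the RPB2 list, 81.1% of the RPB6 list), 44 fell and 994 did not pass. Of those that fell 4937 fell in RPB6 (81% and 82.5%), 148 rose and 1010 did not pass. Across the 12752 protein-coding genes, with no library in common, Pearson's r was 0.79 and Spearman's rho 0.85, as a description. The difference itself was called for 2865 genes (16%), with the RPB2 response higher in 1081 (6.03%) and lower in 1784 (9.95%). This number fell when any RPB2 library was left out, most without either of the IAA libraries, and scaled to mitochondrial mRNAs it was 706. The spread of log2 fold changes was wider in RPB2 (SD 1.98) than in RPB6 (1.62). Mitosis genes had a lower response in RPB2 in 15 of 30 cases and a higher one in 0 with edgeR (0 at an unadjusted p under 0.05, and 0 with DESeq2), while 21 were lower scaled to total counts and 4 scaled to mitochondrial mRNAs. Among genes that differed, Ddit4, an inhibitor of mTOR signalling, rose in RPB2 (18 and 12.4 to 35.2 and 33.6 CPM) and fell in RPB6 (32.2 and 39.0 to 14.2 and 10.8 CPM), a difference of 2.71 ± 0.37 (edgeR adjusted p 4.5e-07). Trim12a, of a family of antiviral factors, went from 3.13 and 5.62 to 28.1 and 35.4 CPM in RPB2 and from 7.17 and 6.25 to 6.29 and 2.03 CPM in RPB6, a difference of 3.49 ± 0.41 (edgeR adjusted p 1.3e-08). Gsn, which severs actin filaments, went from 1.96 and 2.07 to 16.2 and 15.4 CPM in RPB2, a difference from RPB6 of 2.60 ± 0.6 (edgeR adjusted p 0.0015). For Hsp90ab1 the difference was 0.36 ± 0.093 (edgeR adjusted p 0.0046), a call lost scaled to total counts (0.13).

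RPB1 is the largest subunit, with which RPB2 forms the catalytic centre, yet the mRNA pools of the lines differed. The difference of responses was called for 11227 genes (62.6%), with RPB2 higher in 4935 (27.5%) and lower in 6292 (35.1%). In RPB1 35.8% of all genes tested rose and 30.5% fell. Genes with at least 1 count numbered 20571 and 20610 in untreated RPB1 and 27012 and 27121 in RPB1 IAA. A gene high only in RPB1 IAA could pass the filter on low counts, which favours the share that rose there. Of the 5005 genes that rose in RPB2 1400 rose in RPB1 (28.0%) and 1730 fell (34.6%). Of the 6095 that fell in RPB2 2553 fell in RPB1 (41.9%) and 1651 rose (27.1%). The difference was called for all 1730 and all 1651, which opposite calls in the same fit make nearly certain. Pearson's r across the 12752 protein-coding genes was 0.06 and Spearman's rho 0.06. Immediate-early and short-lived mRNAs were the plainest case among the lists. In RPB1 32 of 40 rose and 5 fell (median 1.84), and the RPB2 response was lower than that of RPB1 in 37 of 40 and higher in 0 with edgeR (0 at an unadjusted p under 0.05, and 0 with DESeq2), where 35.1% of all genes were lower, a median difference of -3.55 that was -4.59 scaled to total counts and -5.11 scaled to mitochondrial mRNAs. Rhob went from 52.7 and 47.0 to 144 and 150.0 CPM in RPB1 while it fell in RPB2, a difference of -6.16 ± 0.24 (edgeR adjusted p 5.9e-25). Fos reached 118 and 114 CPM in RPB1 against 11.4 and 11.2 in RPB2, a difference of -3.45 ± 0.7 (edgeR adjusted p 2.9e-05).

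p53 targets differed in the same way, with 21 of 24 higher and 2 lower in RPB1 (median 1.81) and a response in RPB2 below that of RPB1 in 23 of 24 and above it in 1, Bax (difference 1.46 ± 0.22). With total counts and with mitochondrial mRNAs the response was below that of RPB1 in 23 of 24, where 53.5% and 58.1% of all genes were below. In RPB1 Cdkn1a went from 67.3 and 68.2 to 255 and 273 CPM and Mdm2 from 64.7 and 72.8 to 235 and 201 CPM, where both fell in RPB2, differences of -3.32 ± 0.16 (edgeR adjusted p 5.8e-22) and -3.41 ± 0.17 (edgeR adjusted p 2.1e-21). Plk2, a p53-induced kinase, changed by 0.89 in RPB2 and 5.94 in RPB1, and its RPB2 call was lost without IAA replicate 2 (0.62) and scaled to total counts (0.04). The difference was -5.29 ± 0.23 for Mepce and -4.20 ± 0.17 for Hexim1. Polr2a, the gene of RPB1, changed by 2.52 with IAA in the RPB1 line and by 0.25 here, a difference of -2.27 ± 0.16 (edgeR adjusted p 2.3e-16). On the other side stood ribosomal protein genes: the RPB2 response was above that of RPB1 in 76 of 79, 69 of 79 scaled to total counts (12.5% of all genes) and 0 of 79 scaled to mitochondrial mRNAs (0.502%). Single genes with a higher response in RPB2 included Dph6, of diphthamide synthesis (29.8 and 32.1 to 65.2 and 61 CPM in RPB2, 36 and 32.5 to 4.84 and 5.80 in RPB1, difference 3.71 ± 0.26), and Atp6v0e2, of the vacuolar proton pump (15.9 and 19.2 to 54.2 and 58.7 CPM in RPB2, difference 3.58 ± 0.28).

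**Figure D5:**
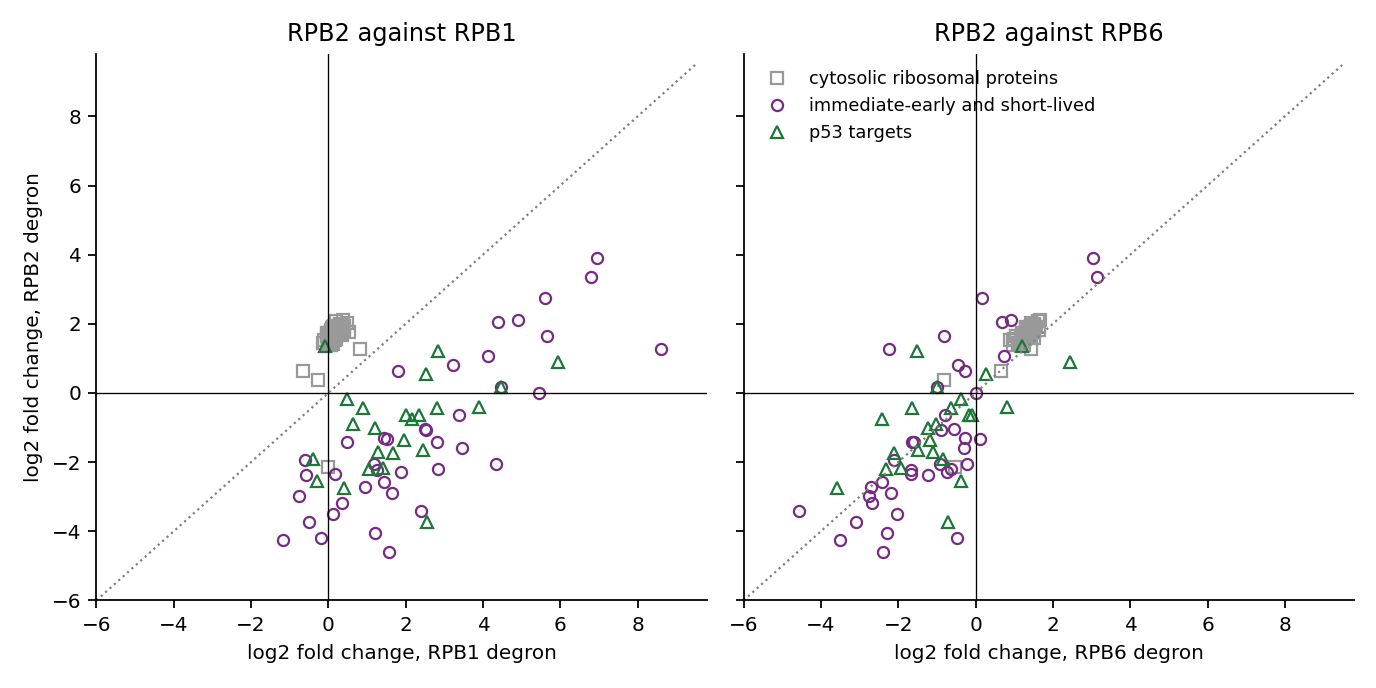
Log2 fold change in the RPB2 line (y axis) against that in RPB1 (left, x axis) and RPB6 (right, x axis) for ribosomal protein genes (squares), immediate-early and short-lived mRNAs (circles) and p53 targets (triangles), IAA 12 h over untreated on the TMM scale; the dotted line marks equal changes. Most immediate-early and p53 genes lie below the line against RPB1 (median differences -3.55 and -2.98), Bax above it (1.46), and around it against RPB6 (-0.20 and 0.12), and ribosomal protein genes lie near 1.74 in RPB2 against 0.15 in RPB1 and 1.36 in RPB6 on this scale.

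WT cells give the background of IAA alone. In WT 295 genes were called (1.65%), 144 higher (0.803%) and 151 lower (0.842%). Of the genes that rose in RPB2 52 rose in WT and 65 fell, and of those that fell 60 fell and 62 rose, so 97.7% and 98% of them did not pass in WT. The difference of the RPB2 and WT responses was called for 9948 genes (55.5%). Anxa2, a calcium-dependent membrane binder, was among the genes with the largest such rise (3.13 and 3.99 to 33.3 and 23.3 CPM, 2.96 ± 0.32, and -0.53 in WT).

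Markers of other cell types were summed to see whether another population appeared. On the TMM scale the sum over all genes tested itself went from 1.01e+06 and 1.03e+06 to 1.85e+06 and 1.85e+06 CPM. A marker sum that rises by as much or less is therefore no larger a share of the counts. Of all genes tested 27.9% rose and 34% fell. Of 15 primitive endoderm markers 9 were tested, 4 rose and 1 fell, and their sum went from 728 and 752 to 2898 and 2834 CPM. Most of this was Sparc, a matrix protein, while Foxa2, Cubn and Afp had no count in the 4 libraries. Of 8 trophectoderm markers tested (12 listed) 2 rose and 3 fell, with a sum of 117 and 123 CPM untreated and 152 and 191 in IAA and no count for Elf5 and Tpbpa. Of 12 mesoderm and primitive streak markers tested (15 listed) 3 rose and 3 fell (108 and 108 CPM to 85.6 and 87.6), with a count for each listed marker in at least 1 library. Of 13 neuroectoderm and primed epiblast markers tested (15 listed) 3 rose and 6 fell, with a sum of 410 and 379 CPM untreated and 646 and 619 in IAA that was mostly Dnmt3b. Of 8 2-cell-like markers tested (14 listed) 1 rose, with a sum of 1.57 and 2.66 CPM untreated and 2.38 and 4.66 in IAA. Of 7 fibroblast markers tested (16 listed) 3 rose, with 1039.9 and 704 CPM untreated and 1776 and 1709 in IAA, mostly Fn1, and with no count for Postn, Lum, Dcn and S100a4. The part of these markers in the other results was not tested.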

How the data were processed

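The authors deposited a table of read counts per gene, not normalized, for poly(A) libraries of 12 degron lines and WT; the submitters' processing notes name STAR, featureCounts, DESeq2 and the builds mm10 and dm6 without roles. No source used here gives the strand setting, the annotation release or the handling of multiple matches. Of its columns, 64 were matched to samples and 4, of no sample here, were not used; 12 libraries of unstated type were left out.

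Counts of 52 libraries (26 groups, 3399838 to 7164928 counts each) were fitted in edgeR 4.0.16 with TMM factors and filterByExpr (17928 of 55335 genes, 99.832% of counts), using quasi-likelihood tests and Benjamini-Hochberg adjustment at 0.05; differences between lines were contrasts of the same fit. A fold against a group at 0 is a bound from 3 counts over the group. On simulated data over 18114 genes, 74% of 100 genes changed by 1 log2 unit and 89% of 100 changed by 2 were recovered, with 7 false calls. No other gene changed there, rises and falls were equal in number, and the same spread served all genes. Most genes were thus unchanged, as TMM takes them to be, whereas 61.9% were called in the data. The simulation therefore cannot say how many of those calls are false. GENCODE M21 named 55154 genes. Genes were named by rule: the extremes of the response and of each difference, Pol II subunits, the members of each list with the smallest adjusted p, and the most counted genes. Members and lists were chosen with earlier results of these data known. Other scalings, filters, DESeq2, a replicate block and leaving out libraries were tried. Some items are not reported here.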

Additional observations from a re-analysis of the deposited data

Results flagged for a closer look

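Responses that differed between lines by a test of the difference itself (edgeR's quasi-likelihood test, Benjamini-Hochberg adjusted) are gathered here as values. The RPB2 response differed from that of WT in 9948 genes, from that of RPB6 in 2865 and from that of RPB1 in 11227. Against RPB6 the response of RPB2 was higher for Gm26917 (5.37), Trim12a (3.49), Ddit4 (2.71), Gsn (2.60), Polr2b (1.13) and Hsp90ab1 (0.36), and lower for Polr2j (-1.17). Against RPB1 it was higher for Gm26917 (5.34), Dph6 (3.71), Atp6v0e2 (3.58) and Polr2b (1.39). Against RPB1 it was lower for Rhob (-6.16), Mepce (-5.29), Hexim1 (-4.20), Fos (-3.45), Mdm2 (-3.41), Cdkn1a (-3.32) and Polr2a (-2.27). All are differences of log2 fold changes on the TMM scale, and their causes were not tested.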

How the results depend on the processing

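Direction and call held best where the scale was kept. Of 177 results followed, 171 kept both with DESeq2 and with RLE size factors, 162 scaled to total counts, 107 scaled to mitochondrial mRNAs, 176 with no filter on low counts and 177 with the fit limited to the lines compared. Genes called in the RPB2 response numbered 10414 with DESeq2, 10957 with RLE, 10990 with no filter, 10485 with a stricter filter and 9928 with the lines alone. Scaled to total counts 2493 rose and 9271 fell, and scaled to mitochondrial mRNAs 89 rose and 13910 fell, with 706 called against RPB6. The median of all genes was 0.00 with DESeq2, RLE and no filter, -1.03 with total counts, -2.32 with mitochondrial mRNAs and -0.09 without untreated replicate 2. The share of the most abundant WT genes changed by 8.59 percentage points for 100 genes, 2.37 for 10 and 14.60 for 1000. Leaving out 1 RPB2 library at a time gave 9865 to 10555 called genes, 4422 to 4682 higher, 5442 to 5936 lower, 9008 to 9671 against WT, 1843 (without IAA replicate 2) to 2709 against RPB6, 10265 to 10738 against RPB1, and medians of -0.27 to -0.09. Total counts turned Polr2a (-0.61), Polr2d (-0.10), Polr2h (-0.26), Polr2i (-0.50), Polr2k (-0.09), Nr0b1 (-0.78), Dppa4 (-0.71) and Srpk1 (-0.80), and DESeq2 and RLE turned Gdf3 (0.23). Calls were lost with total counts for Polr2c (0.06), Polr2g (0.10), Ddit4 (0.35), Dph6 (0.17), Plk2 (0.04) and Hsp90ab1 minus RPB6 (0.13), the last also with no filter (0.23). Calls were gained with DESeq2 and with RLE for Polr2a (0.49 in both), Polr2i (0.60 and 0.59), Dppa4 (0.39 in both), Nr0b1 (0.31 in both) and Srpk1 (0.30 in both). Gdf3 gained a call with total counts (-0.87) and with mitochondrial mRNAs (-2.22). With mitochondrial mRNAs these log2 fold changes turned negative: Srpk1 -2.15, Nr0b1 -2.14, Dppa4 -2.05, Polr2a -1.98, Polr2i -1.83, Polr2h -1.62, Polr2d and Polr2k -1.45, Polr2c and Plk2 -1.29, Polr2g -1.25, Dph6 -1.18, Lin28a -1.13, Lrpprc -1.09, Asns -1.07, Meg3 -1.06, Ddit4 -1.04, Tdh -1.03, Ccnb2 -1.0, Ccnd1 -0.86, Bax -0.85, Polr2f and Npm1 -0.81, Supt5 -0.76, Polr2b -0.73, Polr2e, Hsp90ab1 and Rbbp4 -0.59, Eef1a1, Etv4 and Dnmt3b -0.56, Lig1 -0.54, Atp6v0e2 -0.52, Taf10 -0.51, Rpl7a -0.47, Sdha and Rpl27a -0.46, Gapdh -0.45, Polr2l -0.44, Bop1 -0.43, mt-Nd1 -0.42, Ctsd and Rpl35 -0.38, Actb -0.37, Psmd2 -0.36, Prpf19 -0.33, Pou5f1 -0.30, Atp5b, Eif5a and Dppa5a -0.28, Pabpc1 -0.25, Rps2 -0.22, Cox4i1 -0.20, mt-Cytb and Pgam1 -0.19, Zfp36 -0.17, Rpsa -0.13, Rplp0 -0.11, Ndufa7 -0.10, Lsm4 -0.09. Polr2b minus RPB1 became -0.27. These scalings differ only in their factors, so the turn is a shift common to all genes.

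Deviations of same-numbered RPB2 libraries correlated at 0.0378 over 10730 genes, and the main fit did not pair libraries by replicate number. With 2 libraries a group, this value cannot show whether same-numbered libraries were prepared together. With the replicate block 10837 genes were called, 4869 higher and 5968 lower, 9680 against WT, 2438 against RPB6 and 10885 against RPB1.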
